A study of Mus musculus with 6 samples.

Results

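Transcripts of the gp130 family were examined in cDNT, the mouse T cells without CD4 and CD8 on their surface that had been converted ex vivo from CD4+CD25- T cells. The 5 genes described here encode a pair of cytokines, Lif and Osm, and the receptor chains Il6st, Il6ra and Il27ra. They were chosen because these proteins use the shared receptor chain gp130 and, like IL-10, signal through STAT3. All 5 were found among the 29393 genes of the count table by matching Ensembl identifiers to mouse symbols.

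Both groups held cDNT of adult C57BL/6 mice, which the methods describe as CD4+CD25- T cells from CD45.1 congenic mice cocultured with IL-2 and mature dendritic cells before sorting. The W/ IL-10 group received IL-10 at 50 ng/ml for 24 h, and the W/O IL-10 group did not. The methods add stimulation with anti-CD3/CD28 antibodies, which the sample labels do not mention, and they do not say in words whether the control cells received these antibodies too. Each group had 3 libraries in the sample list, although the series' own design note mentions sequencing in duplicate, and the labels name spleen as the tissue. Nothing in the labels says that the libraries came from separate mice or cultures, so the p-values measure the spread between these libraries, which may be technical.

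IL-6 type cytokines bind receptor chains that pair with gp130, the product of Il6st, which has no ligand of its own. LIF, OSM, IL-6, IL-11, CLCF1 and IL-27 each use gp130 with a partner chain, and the JAK kinases bound to these chains then phosphorylate STAT3. IL-10 binds its own receptor and does not use gp130, but also acts mainly through STAT3. SOCS3 is induced by STAT3, binds gp130 and blocks signaling from it.

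The stretches of 250 bases before the RefSeq start of Lif, the member that differed between the groups, of Il6st, the shared chain, and of Socs3, the gp130 inhibitor, are shown because STAT3 acts on genes by binding DNA at letters of the form TTCNNNGAA. They come from RefSeq (build GRCm38.p6), which gave such a stretch for 3 of the 5 members, Lif, Il6st and Il6ra. Capitals mark matches to TTCNNNGAA or to TGANTCA, the letters bound by AP-1. Both motifs were searched on both strands, and each reads the same on either strand.
Lif, chr11:4257318-4257567, + strand: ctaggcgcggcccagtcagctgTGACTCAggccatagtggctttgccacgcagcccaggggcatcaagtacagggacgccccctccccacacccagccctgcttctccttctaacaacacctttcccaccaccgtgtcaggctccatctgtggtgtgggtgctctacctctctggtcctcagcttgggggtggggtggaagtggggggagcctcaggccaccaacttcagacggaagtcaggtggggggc
Il6st, chr13:112463820-112464069, + strand: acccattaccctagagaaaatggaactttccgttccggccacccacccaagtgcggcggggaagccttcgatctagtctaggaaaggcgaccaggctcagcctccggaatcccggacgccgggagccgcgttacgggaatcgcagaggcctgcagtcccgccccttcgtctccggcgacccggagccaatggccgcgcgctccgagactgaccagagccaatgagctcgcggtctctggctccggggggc
Socs3, chr11:117969367-117969616, - strand: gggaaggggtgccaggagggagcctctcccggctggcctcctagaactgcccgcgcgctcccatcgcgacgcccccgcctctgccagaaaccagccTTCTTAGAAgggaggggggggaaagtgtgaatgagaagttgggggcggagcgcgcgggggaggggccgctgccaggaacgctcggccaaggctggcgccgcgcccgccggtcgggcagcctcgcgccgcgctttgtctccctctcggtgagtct
The Lif stretch held 1 match to the AP-1 letters, TGACTCA, which begins 228 bases before the RefSeq start, and no match to the STAT letters. The Socs3 stretch held 1 match to the STAT letters, TTCTTAGAA, and the Il6st and Il6ra stretches held neither motif. Of the 32851 stretches of 250 bases in the RefSeq table, 7.02% held the STAT letters and 6.75% the AP-1 letters. The RefSeq starts differ from those of the GENCODE annotation whose gene positions are given for the members: the Lif stretch runs past the GENCODE start of Lif at 4257557, and the Socs3 stretch lies within the GENCODE gene at 117966079 to 117970047. A match of letters is a description and does not show that a factor was bound.

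The libraries held 21619420 to 23967088 counts on genes. Differential expression was called at an absolute fold change of 1.5 or more, the threshold that the methods state, together with an adjusted p-value under 0.05 (quasi-likelihood test of edgeR, Benjamini-Hochberg method). The coreceptor genes were checked because the cells are named for the absence of these proteins. Cd4 had 8 to 38 counts per library, whereas Cd8a had 107 ± 11.7 CPM W/O IL-10 and 158 ± 16.6 CPM W/ IL-10 (SD, n = 3) and Cd8b1 38.1 ± 6.03 and 60.8 ± 5.15 CPM, so that CD8 transcripts were present. Of these 3 genes 2 rose, Cd8a (log2 fold change 0.56, adjusted p = 0.0369) and Cd8b1 (log2 fold change 0.67, adjusted p = 0.0306, both edgeR), and Cd8b1 was called. For comparison, 2.19% of all tested genes had an adjusted p under 0.05 at any fold change, and 1.45% were called. The summed level of 8 T cell genes was 2600 to 3030 CPM W/O IL-10 and 3450 to 3490 CPM W/ IL-10, and 1 of them, Cd5, passed the adjusted p, with a lower level W/ IL-10. Transcripts of other cells were found too. The 6 B cell genes summed to 64.7 to 161 CPM and 63.0 to 112 CPM in the same order of groups, and 0 of them passed. The 11 macrophage and neutrophil genes summed to 30.3 to 41.5 CPM and 37.2 to 38.7 CPM, 0 of the 7 tested passed, and Csf3r had at most 2 counts. The 9 dendritic cell genes in the table summed to 40.5 to 43.5 CPM and 59.3 to 70.0 CPM, 1 of the 6 tested passed (Itgax, which some activated T cells also express, with 20.4 ± 2.06 and 43.2 ± 5.36 CPM, SD, n = 3), and Clec9a and Siglech had at most 1 count.

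In cDNT treated with IL-10, Lif was the only 1 of the 5 genes that passed the test, and its transcript level fell. Osm, which encodes a closely related cytokine and lies next to Lif in the genome, had nearly the same mean level in both groups. The transcripts of the receptor chains Il6st and Il27ra differed by small amounts that did not pass the test, and Il6ra was close to the limit of detection. Of the 14916 genes tested, 1.45% were called, 0.677% lower and 0.778% higher W/ IL-10, and 1 of the 5 members was called. The median log2 fold change was 0.07 over the 5 members and 0.01 over all tested genes.

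Lif encodes leukemia inhibitory factor, a secreted cytokine that activates gp130 together with the LIF receptor (ENSMUSG00000034394, chromosome 11 of GRCm38, 4257557 to 4272514, + strand). Its level was 21.2, 24.3 and 21.2 CPM (the count relative to the library size, scaled between libraries by the TMM method) across W/O IL-10 replicates 1 to 3 and 12.9, 12.9 and 12.6 CPM across W/ IL-10 replicates 1 to 3. Every W/ IL-10 library was below every W/O IL-10 library, and the W/ IL-10 libraries lay close together. Among all tested genes, 11.2% had groups apart in this direction. The means were 22.2 ± 1.77 CPM W/O IL-10 and 12.8 ± 0.201 CPM W/ IL-10 (SD, n = 3), and each library held 266 to 587 counts of Lif. The log2 fold change was -0.80 with a standard error of 0.10 and a 95% interval from -1.03 to -0.56 (adjusted p = 0.00846, edgeR), or 0.576 of the W/O IL-10 level. Leaving out any single library kept it between -0.84 and -0.74. The adjusted p was 0.0524 without W/ IL-10 replicate 1 and 0.0704 without W/ IL-10 replicate 3, so that Lif was not called in either fit. Its log2 fold change was -0.80 and -0.78 there, and the calls over all genes fell from 217 to 57 and 35. The exons of Lif have 53.0% GC, and the median log2 fold change of the 1541 tested genes within 1 percentage point of that was -0.06. The median was 0.25 over the 8 T cell genes and 0.56 over the 3 coreceptor genes. Of the latter, Cd8a and Cd8b1 had groups apart with higher values W/ IL-10, which 11.3% of all tested genes had. The median was -0.49 over the 6 B cell genes, -0.60 over the 7 tested macrophage and neutrophil genes and -0.29 over the 6 tested dendritic cell genes. The part of such cells in the lower Lif level was not tested. In bulk RNA, fewer cells that make a transcript and less of it per cell cannot be told apart.

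Osm encodes oncostatin M, which signals through gp130 and the OSM receptor (ENSMUSG00000058755, chromosome 11, 4236420 to 4241026, + strand). Osm was measured at 19.9, 20.4 and 17.0 CPM in the W/O IL-10 libraries and at 17.3, 20.5 and 19.1 CPM in the W/ IL-10 libraries. The groups covered nearly the same range. The means were 19.1 ± 1.84 and 19.0 ± 1.57 CPM (SD, n = 3), and the 95% interval of the log2 fold change ran from -0.27 to 0.25 (adjusted p = 0.981, edgeR).

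The ratio of Lif to Osm counts within a library needs no scaling between libraries. It was 1.07, 1.19 and 1.25 in the W/O IL-10 libraries and 0.745, 0.631 and 0.657 in the W/ IL-10 libraries, so that Lif counts exceeded Osm counts in all 3 libraries of the former group and in no library of the latter. The mean log2 ratio was 0.22 ± 0.12 in the former group and -0.565 ± 0.13 in the latter (SD, n = 3), which differ by -0.79 (two-sided exact permutation test, p = 0.1, the smallest p that 3 libraries against 3 can give). This ratio was chosen after the values had been seen. The counts are not scaled to exon length, which is 4350 bases for Lif and 2272 for Osm. Per kilobase of exon, Osm was above Lif in every library, so a ratio above or below 1 does not give the order of their levels.

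**Figure D1:**
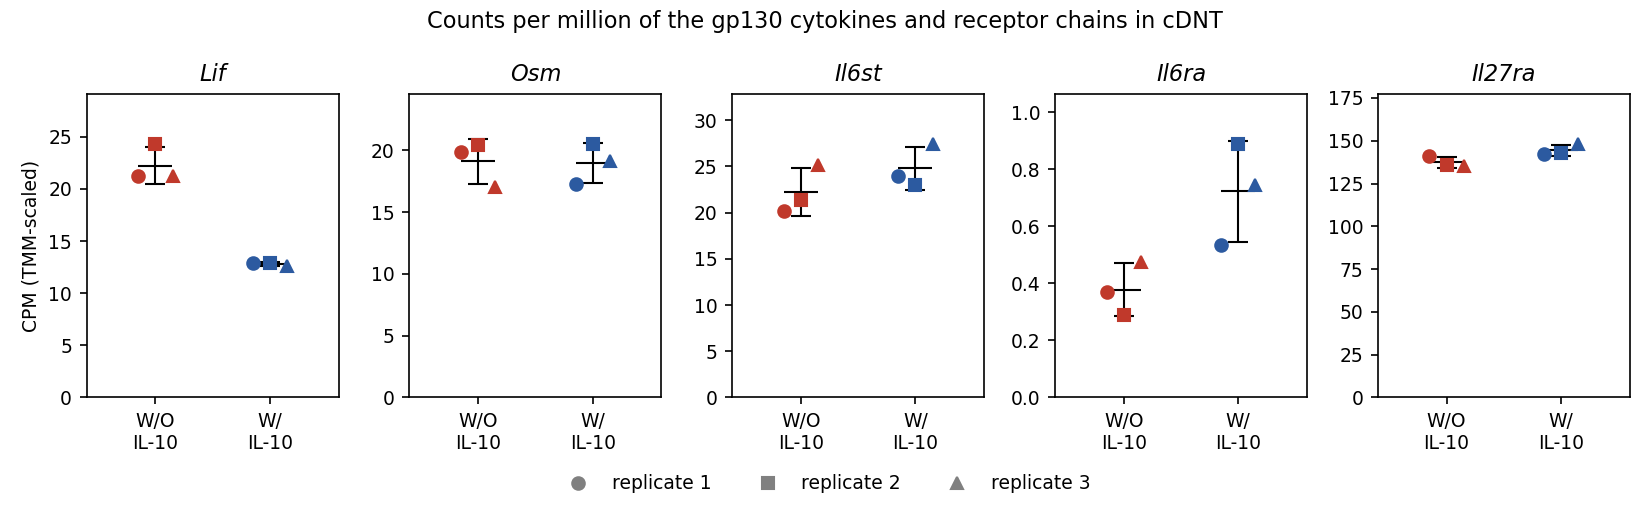
CPM of Lif, Osm, Il6st, Il6ra and Il27ra in the 3 W/O IL-10 libraries (red) and the 3 W/ IL-10 libraries (blue), with 1 symbol per replicate number, black bars for the mean and SD, and a y axis of its own from 0 in each panel. Lif lies at 21.2 to 24.3 CPM W/O IL-10 and at 12.6 to 12.9 CPM W/ IL-10, while the Osm groups overlap and Il6ra stays under 1 CPM.

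Lif and Osm are transcribed in the same direction, and the start of Osm lies 21.1 kb before that of Lif. The annotation holds 6 further protein-coding genes within 100 kb of either, and none of them was called. Castor1, which encodes an arginine sensor of the mTORC1 pathway, is the nearest of these. Its level was 10.1 ± 0.794 CPM W/O IL-10 and 7.87 ± 0.234 CPM after treatment (SD, n = 3), and the ranges were separate (log2 fold change -0.36, adjusted p = 0.226, edgeR). Tbc1d10a, a GTPase-activating protein for Rab proteins, also had groups apart (log2 fold change -0.30, adjusted p = 0.334, edgeR). Groups apart with lower values W/ IL-10 were found in 11.2% of all tested genes, and groups apart in either direction in 22.6%. The splicing factor gene Sf3a1 had 135 ± 5.18 and 135 ± 5.99 CPM (SD, n = 3). The groups overlapped for Rnf215 (log2 fold change -0.10, adjusted p = 0.766) and Ccdc157 (log2 fold change -0.14, adjusted p = 0.598, both edgeR). Hormad2, a gene of meiosis, was near the limit of detection with a mean of 0.443 CPM in each group.

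**Figure D2:**
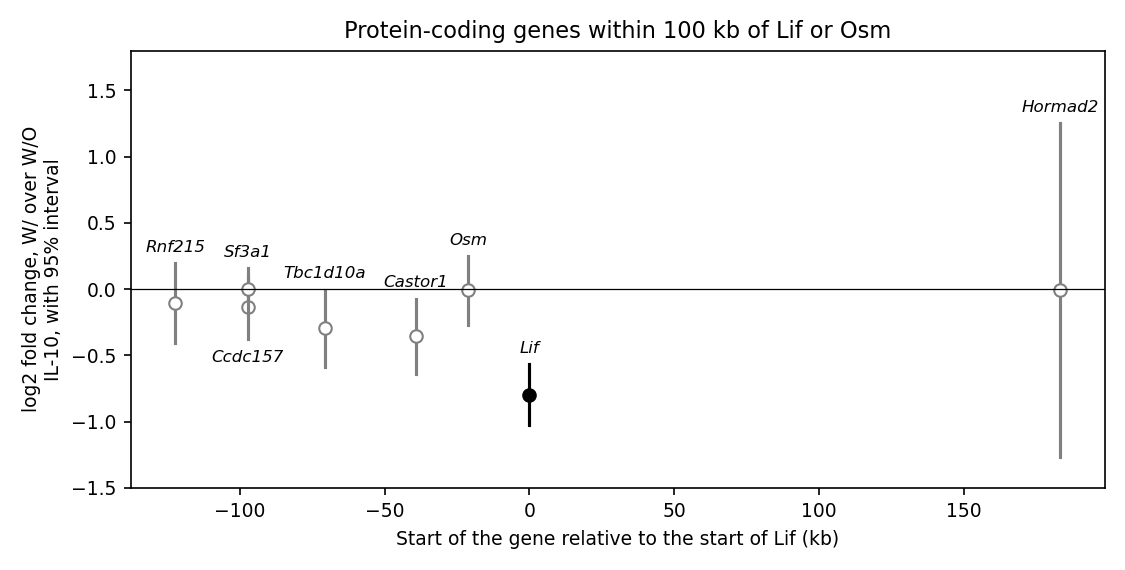
Log2 fold change (y axis, W/ IL-10 over W/O IL-10) of the protein-coding genes within 100 kb of Lif or Osm, placed by the start of each gene relative to the start of Lif in kb (x axis). Circles are estimates from 3 libraries per group, lines are 95% intervals, and the filled black circle marks the called gene, Lif at -0.80, next to Osm at -0.01.

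Il6st encodes gp130 itself (ENSMUSG00000021756, chromosome 13, 112464070 to 112510086, + strand). Its level was 20.2, 21.4 and 25.1 CPM across W/O IL-10 replicates 1 to 3 and 24.0, 23.0 and 27.4 CPM across W/ IL-10 replicates 1 to 3. W/O IL-10 replicate 3 lay within the range of the W/ IL-10 libraries, and the other W/O IL-10 libraries lay below it. The log2 fold change was 0.16 with a 95% interval from -0.11 to 0.42 (adjusted p = 0.580, edgeR), which leaves out a change of 1.5-fold in either direction.

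Il27ra encodes the chain that pairs with gp130 to bind IL-27, a cytokine with both activating and restraining effects on T cells (ENSMUSG00000005465, chromosome 8, 84030294 to 84042589, - strand). It was measured at 141, 136 and 135 CPM W/O IL-10 and at 142, 143 and 148 CPM W/ IL-10. The groups did not overlap but came within about 1 CPM of each other. Groups apart with higher values W/ IL-10 were found in 11.3% of all tested genes. The log2 fold change was 0.07 with a 95% interval from -0.08 to 0.22 (adjusted p = 0.666, edgeR).

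Il6ra encodes the chain that binds IL-6 before it joins gp130 (ENSMUSG00000027947, chromosome 3, 89864059 to 89913196, - strand). Only 9, 7 and 11 counts were found across W/O IL-10 replicates 1 to 3, and 11, 20 and 17 counts across W/ IL-10 replicates 1 to 3. After scaling these were 0.290 to 0.474 CPM W/O IL-10 and 0.534 to 0.888 CPM W/ IL-10, which did not overlap, although 1 library of each group held 11 counts. The log2 fold change was 0.95 with a wide 95% interval from 0.00 to 1.89, and the gene did not pass the test (adjusted p = 0.338, edgeR). With at most 20 counts in a library, a difference of this size was not resolved. Of the exon bases of Il6ra, 2.8% lie under the opposite-strand gene Gm42809, and the sources used here do not state whether the counting used strand. No stretch of 50 bases in the transcripts of the 5 members occurred in a transcript of another gene. In 3 of the 5 members, Lif, Il6ra and Il27ra, the groups did not overlap, against 22.6% of all tested genes.

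Levels of different genes were compared as CPM per kilobase of exon, with all annotated exons of a gene merged. Il27ra had the highest level of the 5 members, 39.3 ± 0.99 in control and 41.3 ± 0.929 in treated libraries (SD, n = 3). Osm came next with 8.41 ± 0.81 and 8.36 ± 0.691, then Lif with 5.11 ± 0.406 and 2.94 ± 0.0461, and Il6st with 2.0 ± 0.227 and 2.23 ± 0.21. Il6ra was lowest with 0.0436 ± 0.0107 and 0.0836 ± 0.0206 (SD, n = 3). No library of a member reached the range of its neighbour in this order within the same group, so all neighbours differed by more than their spread, with Lif and Il6st closest W/ IL-10 at 2.89 to 2.97 and 2.07 to 2.47 CPM per kilobase. Il6st has 11099 merged exon bases from several isoforms, so its value on this scale depends on which of them cDNT use.

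**Figure D3:**
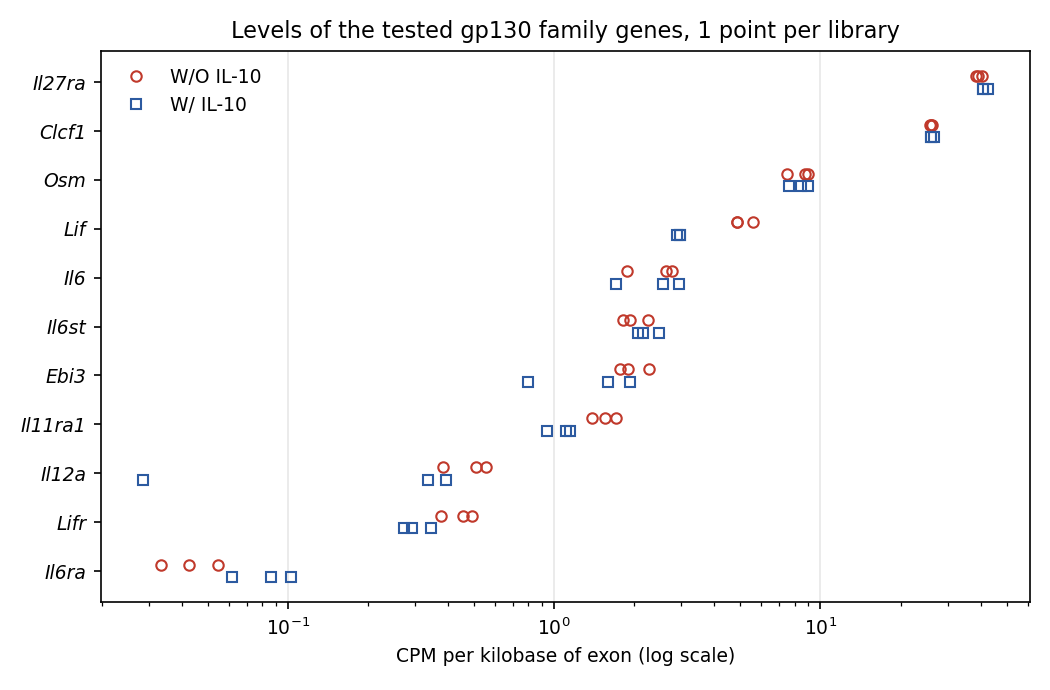
Levels of the 11 tested gp130 family genes in CPM per kilobase of exon (x axis, log scale), with 1 symbol per library (red circles W/O IL-10, blue squares W/ IL-10) and genes ordered by the W/O IL-10 mean. Il27ra and Clcf1 are at the top, at 41.3 and 26.2 on average W/ IL-10, and Il6ra is at the bottom.

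The family was completed with 11 other ligand or ligand subunit genes and 5 other receptor chain genes, listed with earlier results of these data known. Of these, 10 ligand genes and 4 receptor genes were in the table, and 4 and 2 of them had enough counts to be tested. None passed the test. Clcf1, a cytokine that activates gp130 through the CNTF receptor, had the highest level of these, 98.9 ± 0.756 CPM W/O IL-10 and 99.8 ± 1.09 CPM W/ IL-10 (SD, n = 3), with a 95% interval of the log2 fold change from -0.13 to 0.15. Il6 was measured at 4.54, 6.41 and 6.72 CPM W/O IL-10 and at 6.22, 7.15 and 4.16 CPM W/ IL-10, with overlapping groups (adjusted p = 0.988, edgeR).

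The subunits of IL-27 were low. Ebi3, which is shared by IL-27 and IL-35, had 2.28 ± 0.303 CPM W/O IL-10 and 1.66 ± 0.667 CPM W/ IL-10 (SD, n = 3), and the groups overlapped (adjusted p = 0.577, edgeR). Il27, the other subunit, was not tested, with 6 to 8 counts in a W/O IL-10 library and 9 or 10 in a W/ IL-10 library. Il12a, the partner of Ebi3 in IL-35, had 16, 21 and 22 counts W/O IL-10 and 1, 15 and 13 counts W/ IL-10 (adjusted p = 0.541, edgeR), with W/ IL-10 replicate 1 far below the other libraries.

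The partner chains that LIF and IL-11 need beside gp130 had groups that did not overlap, with lower values W/ IL-10, and neither passed the test. Such a separation in the same direction was found in 11.2% of all tested genes. Lifr, the LIF receptor chain, was measured at 4.04, 5.29 and 4.91 CPM W/O IL-10 and at 3.16, 3.73 and 2.94 CPM W/ IL-10. The estimated log2 fold change of Lifr was -0.54 with a 95% interval from -0.98 to -0.10 (adjusted p = 0.238, edgeR). Il11ra1, the IL-11 receptor chain, was at 6.92 ± 0.699 CPM W/O IL-10 and at 4.78 ± 0.502 CPM W/ IL-10 (SD, n = 3), with -0.54 as the log2 fold change (adjusted p = 0.157, edgeR).

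Osmr, the OSM receptor chain, had 0 to 5 counts per library, and Il31ra, which pairs with it for IL-31, had 2 to 11 counts. Il11 had 0 to 6 counts, Cntf 1 to 7 counts and Ctf1 0 to 7 counts. Il31 had at most 1 count in any library. The limit that a count of 0 allows, 3 counts, was 0.123 to 0.146 CPM in these libraries and covers counting error only. Ctf2 and Cntfr were not analysed here.

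**Figure D4:**
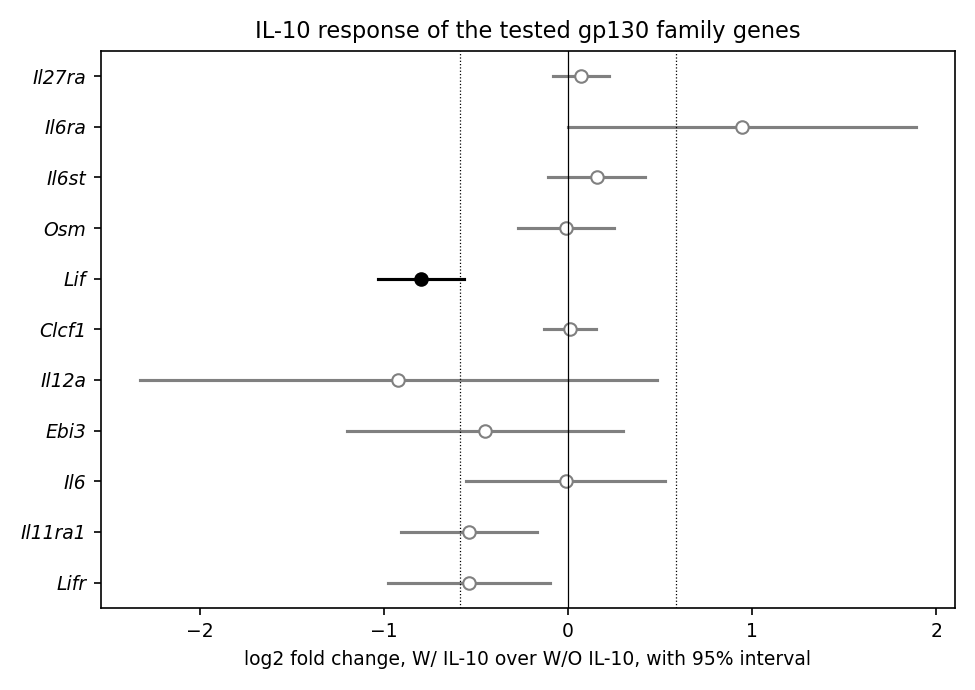
Log2 fold change (x axis, W/ IL-10 over W/O IL-10) of the 11 tested gp130 family genes, with the 5 members at the top, then other ligands and other receptor chains. Circles are estimates from 3 libraries per group, lines are 95% intervals, dotted lines mark a 1.5-fold change, and the filled black circle is Lif, the called gene. The intervals of Lifr, Il11ra1 and Il6ra lie on 1 side of 0 before adjustment, and those of Osm, Il6st and Il27ra span it.

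Of 20 genes of signal transducers and brakes of gp130, 18 were tested and 1, Socs3, was called. Of all tested genes, 1.45% were called, 0.778% were called higher W/ IL-10, and 2.19% had an adjusted p under 0.05 at any fold change. The kinase genes Jak1 (1020 ± 74.9 and 1010 ± 63.0 CPM, SD, n = 3), Jak2 (205 ± 24.7 and 216 ± 8.67 CPM) and Tyk2 (179 ± 6.10 and 162 ± 14.9 CPM) had overlapping groups. Stat3 was measured at 343, 409 and 393 CPM W/O IL-10 and at 486, 494 and 512 CPM W/ IL-10. The groups were apart, and 11.3% of all tested genes had groups apart with higher values W/ IL-10. The log2 fold change of Stat3, 0.38, did not pass the test (adjusted p = 0.0720, edgeR). Stat3 passed with DESeq2 (adjusted p = 0.00709) and in edgeR without a filter on low counts (adjusted p = 0.0136). In edgeR it also passed after a correction for GC content and length (adjusted p = 0.0192, or 0.00794 with the replicate block). It did not pass in the other settings or with any single library left out, where the highest adjusted p was 0.267 (edgeR).

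Socs3 was measured at 9.56 to 11.2 CPM W/O IL-10 and at 29.2, 40.9 and 42.1 CPM W/ IL-10. Every W/ IL-10 library was over 2 times every W/O IL-10 library. It rose by 1.82 ± 0.15 on the log2 scale (estimate and standard error, adjusted p = 0.00102, edgeR), and it was called under every alternative setting and with any single library left out. The median log2 fold change was 0.01 over the 18 genes and over all tested genes.

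Of 24 genes known to be induced by STAT3, a list that shares 2 genes with the previous one, 23 were tested, 8 rose and 2 fell at an adjusted p under 0.05, against 1.21% and 0.979% of all tested genes. The list was chosen with earlier results of these data known, so its direction is not independent evidence. Socs3, the transcriptional coregulator gene Bcl3 (log2 fold change 1.69, adjusted p = 0.000202), the kinase gene Pim2 (log2 fold change 1.45, adjusted p = 0.000248), Il10 (0.430 CPM W/O IL-10 and 1.82 CPM W/ IL-10, log2 fold change 2.08, adjusted p = 0.0318), the IL-21 receptor gene Il21r (log2 fold change 0.69, adjusted p = 0.0424) and the AP-1 gene Junb (log2 fold change 0.62, adjusted p = 0.0236) were called higher, all by edgeR. Pim1 (log2 fold change 0.52, adjusted p = 0.0190) and Batf (log2 fold change 0.48, adjusted p = 0.0390) rose by less than 1.5-fold. Maf, a transcription factor gene of IL-10-producing T cells, fell by less than 1.5-fold (log2 fold change -0.52, adjusted p = 0.0272, edgeR). The median log2 fold change of the 23 genes was 0.20. The counts depended on single libraries: without W/O IL-10 replicate 2, W/ IL-10 replicate 2 or W/ IL-10 replicate 3, 3 genes rose and 0 fell, and without W/ IL-10 replicate 1 or W/O IL-10 replicate 3, 4 rose. Socs3, Bcl3 and Pim2 were called each time. Il10 was called only without W/O IL-10 replicate 1 among these 6 fits, Il21r only without W/O IL-10 replicate 3, and Junb only without W/ IL-10 replicate 1. Pim1 and Batf had an adjusted p under 0.05 only without W/O IL-10 replicate 1, and Maf only without W/O IL-10 replicate 1 or 3. The highest adjusted p among these fits was 0.112 for Pim1, 0.146 for Batf, 0.16 for Maf, 0.135 for Il10, 0.205 for Il21r and 0.136 for Junb (edgeR).

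**Figure D5:**
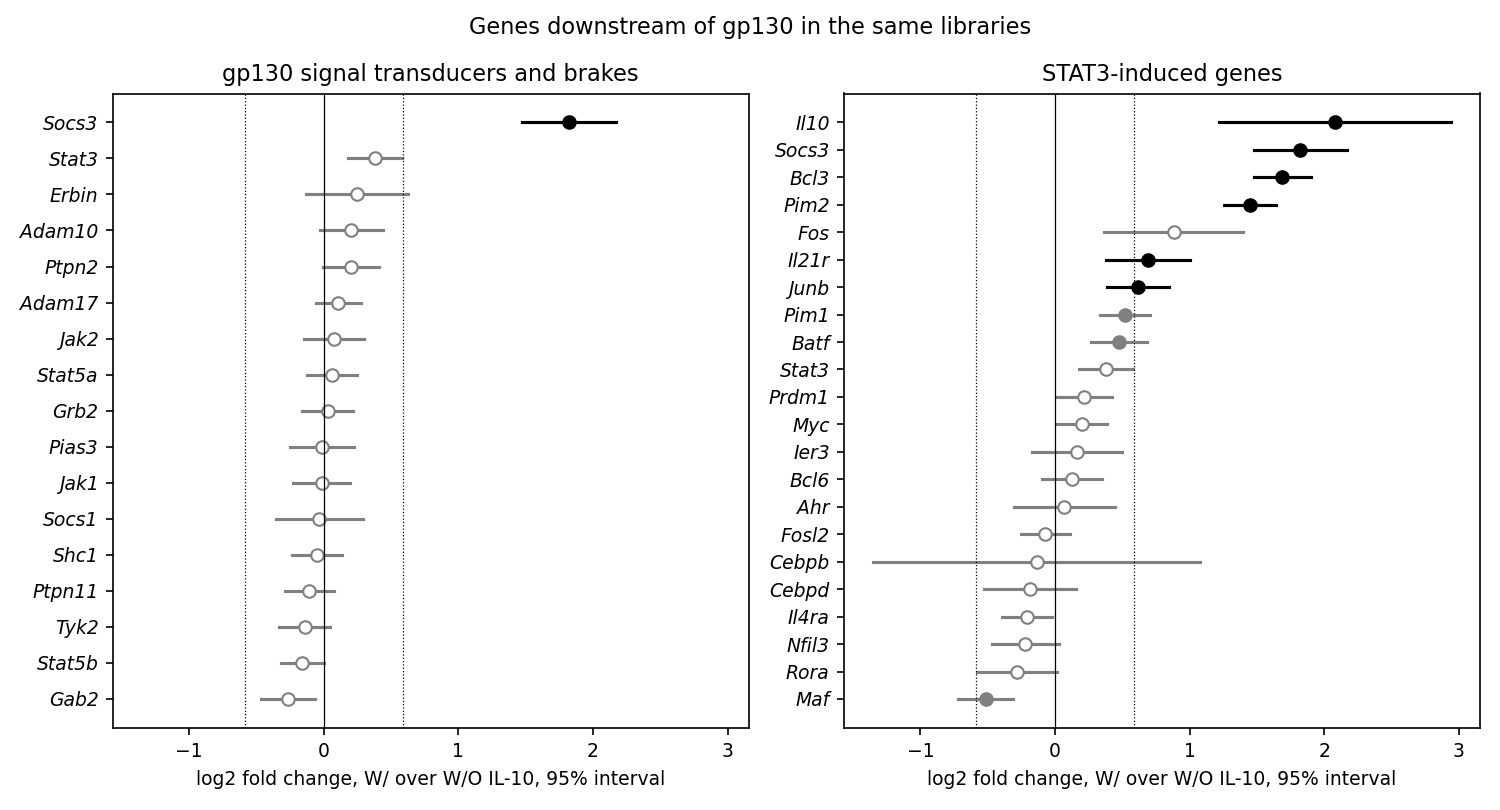
Log2 fold change (x axis, W/ IL-10 over W/O IL-10) of tested transducers and brakes of gp130 (left) and tested STAT3-induced genes (right), each with its 95% interval, without a few genes that are not reported here. Filled circles have an adjusted p under 0.05, black ones are also past a 1.5-fold change (dotted lines), and Socs3 at 1.82 stands apart on the left.

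For each member, the tested genes whose log2 CPM followed it most closely over the 6 libraries were sought. As a description over 6 points that share scaling and group, the highest Pearson r with Lif was 0.996 for St3gal1, a sialyltransferase gene, and for Slc2a6, a sugar transporter gene, followed by Tmem206 with 0.995. Of these 3, Slc2a6 was called as well, with 50.9 CPM W/O IL-10 and 30.9 CPM W/ IL-10 on average (log2 fold change -0.72, adjusted p = 0.00846, edgeR), and like Lif it was not called without W/ IL-10 replicate 1 (adjusted p = 0.0528) or without W/ IL-10 replicate 3 (adjusted p = 0.0777). The closest genes to Osm were Dhcr7, Nelfa and Necap2 (r from 0.958 to 0.973), to Il6st Clasp1, Unc5cl and Nlk (r from 0.980 to 0.996), to Il6ra Ubxn8, Dus2 and Cmas (r from 0.977 to 0.991), and to Il27ra BC049715, Tnfaip8l1 and Fnbp1 (r from 0.987 to 0.991). None of these 12 genes was called.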

How the data were processed

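Transcripts of cDNT kept W/O IL-10 or W/ IL-10 were measured in 3 libraries per group by RNA sequencing. The authors deposited 1 table of whole-number counts per Ensembl gene, not normalized. The methods name TopHat and Cufflinks with UCSC annotation, the submitters' processing notes name HISAT2, HTSeq and GRCm38, and versions and strand setting are not given in the sources used here.

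The main test was the quasi-likelihood test of edgeR 4.0.16 (R 4.3.3) on these counts with TMM factors of 0.953 to 1.03, over the 14916 genes that reached 10 counts in 3 or more libraries, without a block. Fold changes were not shrunken, and intervals are estimate and standard error with the t quantile of the fit. Alternatives were DESeq2 1.42.0, upper-quartile factors, no filter on low counts, 10 counts in every library, limma-voom (limma 3.58.1), the replicate block, a correction for GC content and length (splines with 5 degrees of freedom, values for 99.9% of tested genes), this with the block, and each library left out. The tests were also run on simulated data with 200 changed genes. Exceptions were 10 counts in every library, the GC and length correction with the block, and the fits with a library left out.

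The members and lists were chosen with earlier results of these data known. The genes named are the members, the other family genes, listed pathway genes past the adjusted p of 0.05 with Jak1, Jak2, Tyk2 and Stat3, protein-coding neighbours within 100 kb of Lif or Osm, and for each member the 3 genes of at least 1 CPM with the highest Pearson r (log2 CPM, prior count 2). Results for some listed genes are not reported here. The marker genes named, among them Itgax, were chosen after their values were seen. Symbols and positions come from GENCODE M21 of GRCm38, with 29332 of the 29393 identifiers found. Plots were drawn in Python 3.11.15 with matplotlib 3.10.9.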

Additional observations from a re-analysis of the deposited data

How the results depend on the processing

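Over 14 alternatives, Lif kept its direction in all, with a log2 fold change from -0.84 to -0.72, and was called in 12. The exceptions were the fits without W/ IL-10 replicate 1 and without W/ IL-10 replicate 3. Leaving out each library in turn gave a log2 fold change of Lif from -0.84 to -0.74 and 0 to 1 members called. With the replicate block the log2 fold change of Lif was -0.79 (adjusted p = 0.0242), and no call of a member changed. With the block Il10 was not called (adjusted p = 0.0564), and Batf did not pass (adjusted p = 0.0508). The deviations of same-numbered libraries from their group means correlated by 0.05, -0.06 and 0.11, so the numbers were not taken as pairs. No alternative called Osm, Il6st, Il6ra or Il27ra. Il6ra was not tested with 10 counts required in every library. The order of the members by level was the same in the 8 settings in which it was computed, the other scalings and each library left out.

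The log2 fold change of Osm was 0.063 after the GC and length correction and 0.062 when the replicate block was added, and it was -0.099 to 0.051 with each library left out. Under these 2 fits that of Sf3a1 was 0.043 and 0.043, of Dhcr7 0.042 and 0.045, and of Necap2 0.079 and 0.079. With upper-quartile factors that of Clcf1 was -0.005 and of Nelfa -0.004. With each library left out it was -0.184 to 0.184 for Il6, -0.006 to 0.019 for Clcf1, -0.065 to 0.032 for Jak1, -0.029 to 0.123 for Jak2, -0.177 to 0.021 for Rnf215, -0.04 to 0.032 for Sf3a1, -0.188 to 0.375 for Hormad2, -0.121 to 0.017 for Dhcr7, -0.043 to 0.063 for Nelfa and -0.069 to 0.03 for Necap2. None of these genes was called. Of the other 42 named genes 32 kept their direction in every alternative, and of their 8 calls 3, those of Socs3, Bcl3 and Pim2, held in every alternative.

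Over all genes, 217 were called, 116 of them higher, against 356 with DESeq2, 639 without a filter and 331 with the GC and length correction and the replicate block (196 with the block alone), and 35 to 254 with each library left out. Depth limits what can be said of Il6ra, Il27, Osmr and the other genes with few counts.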
